A study of Rattus norvegicus with 24 samples.

Results

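Probe sets of 8 genes that encode proteins of central myelin or make one of its lipids (Mbp, Mobp, Mag, Mog, Cnp, Mal, Cldn11 and Ugt8) were followed in rat cerebellum and hippocampus during early postnatal life. They were chosen by the gene symbol in the platform's annotation, which gave 14 probe sets out of 15866 that are not array controls: 3 for Mobp, 2 each for Mbp, Cnp, Cldn11 and Ugt8, and 1 each for Mag, Mog and Mal. Long Evans dams received corn oil alone (0 mg/kg/day) or Aroclor 1254, a polychlorinated biphenyl mixture once sold for industrial use, at 6 mg/kg/day in that oil, by gavage from gestation day 6. Pups labelled male were taken at postnatal day 7 (PND7) and 14 (PND14), and total RNA of both tissues was hybridised to Affymetrix arrays, which gave 24 arrays in 8 groups of tissue, age and dosing. Each group holds pups of 3 dams, numbered 1, 7 and 13 without dosing and 12, 15 and 18 with it, so the dam is the unit of replication. Values are log2 expression per probe set, and differences between groups are differences in log2.

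Myelin is the lipid-rich membrane that oligodendrocytes wrap around axons. In the rodent brain most of it forms after birth, in a sequence that differs between regions, and the genes of its proteins are switched on together as oligodendrocytes mature. Thyroid hormone is known to advance this maturation, and polychlorinated biphenyls are known to lower circulating thyroid hormone in rat pups. In whole tissue, fewer oligodendrocytes and less RNA per oligodendrocyte cannot be told apart.

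The cerebellum PND14 array of undosed dam 13 had a column median of 7.91 against 7.42 to 7.48 in the other 23 and correlated with them at r = 0.623 to 0.660, while 0.941 was the lowest r among the rest. It was left out, so that undosed cerebellum at PND14 holds 2 arrays (dams 1 and 7) in each value below. Xist, the RNA of the inactive X chromosome that is normally made in females, stood at 8.98 to 10.8 in 4 of the 23 arrays although all pups are labelled male, and at 3.95 to 4.32 in the other 19. These 4 arrays are all undosed: both tissues of the PND7 pup of dam 13 and of the PND14 pup of dam 1. In the tissue check on undosed pups, 8 of 9 cerebellar neuron genes at PND7 and 9 of 9 at PND14 were higher in the cerebellum arrays, and 7 of 9 and 8 of 9 hippocampal neuron genes were lower there, with 1 of these 9 higher at each age.

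A probe set was tested where it lay above the 40th percentile of its array in at least 3 arrays, which 10330 probe sets did. Of the 14 myelin probe sets 13 passed. Of these, 9 would also have passed on the PND7 arrays alone. The other 4 passed only through PND14, where they are high: Mog with 0 PND7 arrays above the 40th percentile, and Mal, Mobp 1370434_a_at and Mobp 1370500_a_at with 2 each, so their rise with age was partly built into passing and their counts below are a description. Ugt8 1368857_at did not pass: it lay at 3.90 to 4.13 in all 23 arrays, within the lowest 2.07 percent of its array, while the other probe set of the same gene, Ugt8 1368858_at, ranged from 5.96 to 9.42. The flat probe set thus gives no reading of the age and tissue differences that the other shows. Adjusted p-values below are from limma's moderated test with Benjamini-Hochberg adjustment over all 10330, with 0.05 as the threshold for a call.

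Every tested myelin probe set rose from PND7 to PND14 in both tissues and under both dosing conditions. In undosed cerebellum 13 of 13 were called higher, 9 of them among those that passed on PND7 arrays alone, where 15.1% of all probe sets tested were. In dosed cerebellum 13 of 13 were called higher against 16.0%, in undosed hippocampus 13 of 13 against 14.9%, and in dosed hippocampus 13 of 13 against 14.2%. The same 9 were among them each time. The median rise of the 13 was 2.23, 2.07, 1.88 and 2.26 in that order, while over all those tested the median lay between -0.03 and 0.00. In each of the 4 comparisons no PND14 array overlapped a PND7 array for any of the 13, where 29.0%, 18.8%, 24.6% and 17.5% of all probe sets were higher without overlap. Leaving out the 4 arrays of high Xist leaves 1 undosed cerebellum array at PND14, and both Cnp probe sets lost their call in undosed cerebellum. In the other 3 comparisons 13 of 13 were called higher. The shares of all probe sets called higher in that fit were 14.3% in dosed cerebellum, 9.55% in undosed hippocampus and 11.8% in dosed hippocampus.

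Markers of other cells moved with age in the same arrays. Of 11 meninges and fibroblast genes 5 fell in undosed cerebellum and 9 fell in undosed hippocampus, where 17.3% and 16.9% of all probe sets fell. Their mean was 8.69 to 8.87 at PND7 and 8.22 to 8.32 at PND14 in undosed cerebellum, and 8.29 to 8.62 and 7.58 to 7.84 in undosed hippocampus. Without the arrays of high Xist 1 and 8 fell. Of 13 astrocyte genes 4 rose and 2 fell in undosed cerebellum, and 5 rose and 0 fell in undosed hippocampus, with means of 9.55 to 9.67 against 9.93 to 9.97 and of 9.30 to 9.57 against 9.87 to 9.92. Their part in the rise of the myelin genes was not tested.

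**Figure D1:**
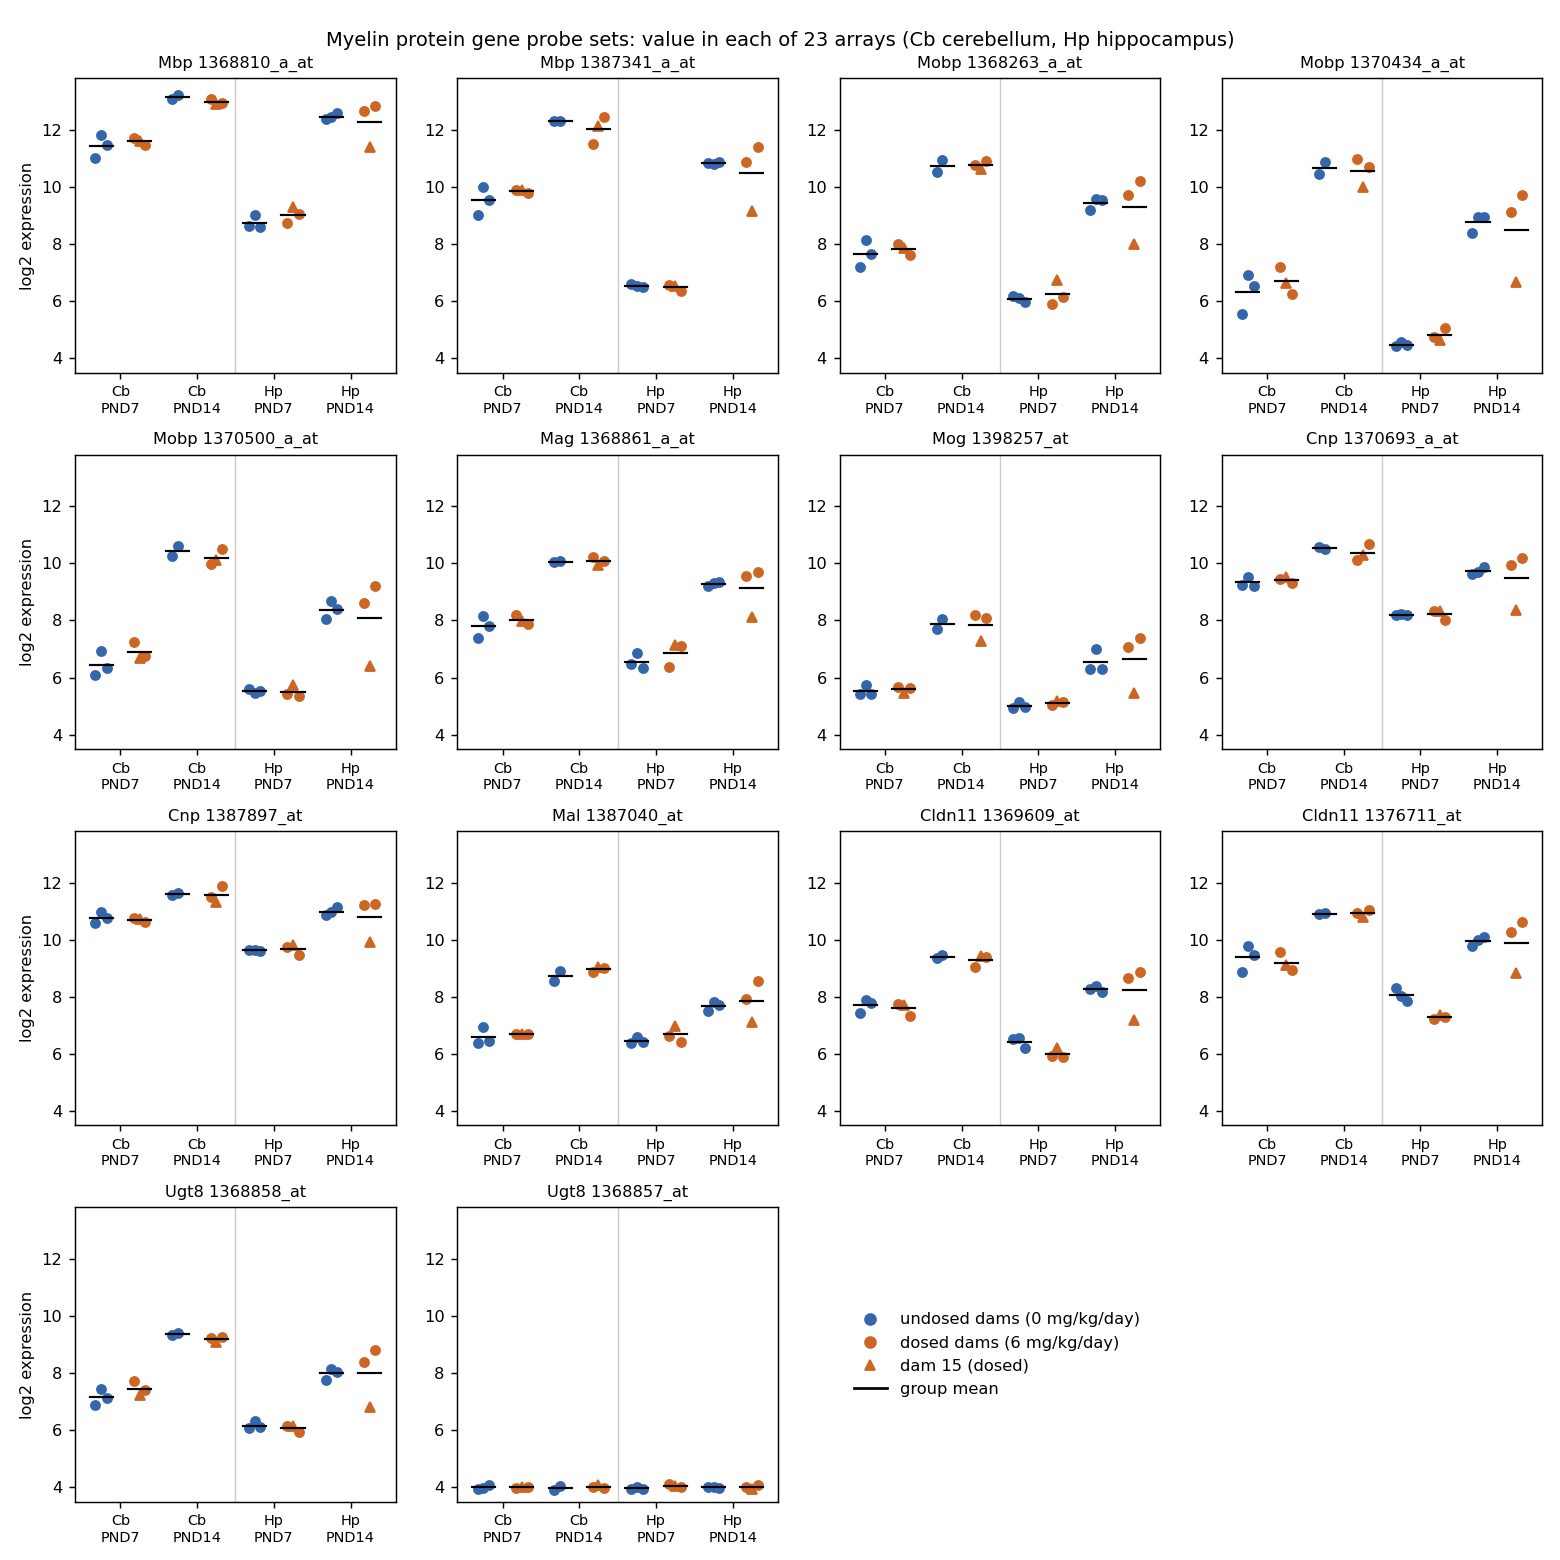
Log2 expression (y axis) of the 14 myelin probe sets in 23 arrays, by tissue (Cb cerebellum, Hp hippocampus) and age on the x axis; blue points are pups of undosed dams, orange points pups of dosed dams, orange triangles those of dam 15, and bars are group means. PND14 lies above PND7 in 13 panels, Ugt8 1368857_at stays at 3.90 to 4.13, and the triangle of dam 15 is the lowest PND14 hippocampus point in the 13 other panels.

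Mobp, an oligodendrocyte protein of the compacted membrane, was among the steepest risers. Mobp 1370434_a_at read 5.56, 6.90 and 6.52 in undosed cerebellum at PND7 (dams 1, 7 and 13) and 10.44 and 10.86 at PND14 (dams 1 and 7). In undosed hippocampus it read 4.42, 4.57 and 4.45 at PND7 and 8.38, 8.97 and 8.96 at PND14. The ages are far apart in both tissues, and hippocampus at PND7 is the lowest group. No fold is given for it, since only 1 of 3 undosed PND7 cerebellum arrays and 0 of 3 undosed PND7 hippocampus arrays lay above the 40th percentile. Its rise was 4.32 ± 0.56 (SE) in undosed cerebellum and 4.29 ± 0.50 in undosed hippocampus. These values are a description, since it passed the filter only through PND14 arrays. The dosed pups (dams 12, 15 and 18) read 7.19, 6.65 and 6.26 at PND7 and 11.00, 10.00 and 10.69 at PND14 in cerebellum, and 4.76, 4.66 and 5.08 at PND7 and 9.11, 6.66 and 9.73 at PND14 in hippocampus. The ages were again apart, with the hippocampus PND14 pup of dam 15 far below its mates. It rose by 3.86 ± 0.50 in dosed cerebellum and by 3.67 ± 0.50 in dosed hippocampus. The other Mobp probe sets rose by 2.95 to 3.97 in cerebellum and by 2.56 to 3.36 in hippocampus over both dosing conditions.

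The promoter of Mobp stands out among the members by its letters. It is shown because short matches to the core letters bound by SOX factors (ACAAAG, or CTTTGT on the other strand), a family that includes Sox10 of oligodendrocytes, are dense in it. In RefSeq's promoter table for GRCr8, windows of 250 bases before the start held such a match in 16.3% of 33469 promoters and 5 or more matches in 4 of them. That of Mobp held 8. The stretch printed here, chr8:128746982-128747116 on the plus strand, holds 7 of them, in capitals. It ends at the base before the gene's annotated span, and the other 115 bases of the window lie within that span.
Mobp: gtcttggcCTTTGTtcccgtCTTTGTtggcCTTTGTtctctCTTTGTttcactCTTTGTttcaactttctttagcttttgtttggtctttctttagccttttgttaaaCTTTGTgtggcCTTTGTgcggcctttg

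Of the 8 genes 7 had an entry in that table, with 8 entries in all, since Mbp has 2. A SOX match was in 4 of the 8 entries (Mobp, Cnp, Mag and 1 of Mbp), and the core letters of MYRF, the factor that drives oligodendrocyte maturation (CTGGNAC or GTNCCAG), in 5 of the 8 (Cnp, Mag, Mal, Cldn11 and the other entry of Mbp), against 14.8% of all promoters. The promoter of Cnp is shown because it holds 1 of each, in capitals (ACAAAG and CTGGCAC), within the 250 bases up to its start, chr10:86011254-86011503 on the plus strand. The motifs were picked with these genes in view, and a match is a stretch of letters and not a measured binding site.
Cnp: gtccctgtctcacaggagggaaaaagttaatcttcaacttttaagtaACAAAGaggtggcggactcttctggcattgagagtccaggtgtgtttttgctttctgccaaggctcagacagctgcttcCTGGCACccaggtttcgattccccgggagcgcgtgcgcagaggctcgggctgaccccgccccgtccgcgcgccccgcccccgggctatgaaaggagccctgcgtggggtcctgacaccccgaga

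Mbp, the basic protein that holds the cytoplasmic faces of compact myelin together, rose more in hippocampus than in cerebellum. In undosed cerebellum Mbp 1368810_a_at read 11.01, 11.82 and 11.47 at PND7 and 13.06 and 13.22 at PND14. In undosed hippocampus it read 8.62, 9.04 and 8.60 at PND7 and 12.38, 12.45 and 12.57 at PND14. The tissues were thus far apart at PND7 and close at PND14, although still without overlap. The rise was 1.71 ± 0.29 (3.27-fold, adjusted p = 1.06e-04) in cerebellum and 3.71 ± 0.25 (13.1-fold, adjusted p = 7.28e-09) in hippocampus. Mbp 1387341_a_at read 9.04, 10.01 and 9.55 at PND7 and 12.33 and 12.33 at PND14 in undosed cerebellum, and 6.59, 6.53 and 6.50 against 10.85, 10.81 and 10.87 in undosed hippocampus. It rose by 2.80 ± 0.40 in cerebellum and by 4.30 ± 0.35 in hippocampus, so both Mbp probe sets had the larger estimate in hippocampus. Dosed pups read 11.70, 11.61 and 11.48 at PND7 and 13.06, 12.89 and 12.95 at PND14 for Mbp 1368810_a_at in cerebellum, and 8.73, 9.30 and 9.04 against 12.64, 11.39 and 12.84 in hippocampus. In these the rise was 1.37 ± 0.25 in cerebellum and 3.26 ± 0.25 in hippocampus, and the tissues overlapped at neither age.

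Mag, a surface protein on the inner wrap that faces the axon, read 7.40 to 8.17 at PND7 and 10.03 to 10.07 at PND14 in undosed cerebellum, and 6.35 to 6.86 and 9.19 to 9.35 in undosed hippocampus. It rose by 2.25 ± 0.32 and 2.73 ± 0.29. Mog, a surface protein of the outermost wrap and a late marker of the lineage, read 5.44 to 5.73 at PND7 and 7.88 ± 0.26 (SD, n = 2) at PND14 in undosed cerebellum, and 4.94 to 5.14 and 6.30 to 7.00 in undosed hippocampus. It rose by 2.35 ± 0.36 and 1.52 ± 0.32. The direction of the tissue difference thus went opposite ways for Mag and Mog, and neither difference was called (adjusted p = 0.478 and 0.247).

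Mal, a membrane proteolipid that takes part in sorting proteins to the myelin membrane, read 6.38, 6.95 and 6.46 in undosed cerebellum at PND7 and 8.54 and 8.92 at PND14. In undosed hippocampus it read 6.39, 6.60 and 6.42 at PND7 and 7.51, 7.80 and 7.73 at PND14. The tissues overlapped at PND7 and were separate at PND14. Mal rose by 2.13 ± 0.26 in cerebellum and by 1.21 ± 0.23 in hippocampus. Dosed pups read 6.69, 6.70 and 6.68 at PND7 and 8.88, 9.03 and 9.01 at PND14 in cerebellum, and 6.64, 6.99 and 6.43 against 7.91, 7.11 and 8.55 in hippocampus. They showed the same overlap at PND7 and separation at PND14, with rises of 2.28 ± 0.23 and 1.17 ± 0.23. Cldn11, the claudin that forms tight junctions between the wraps and that meningeal cells also make, rose by 1.70 ± 0.30 and 1.54 ± 0.33 (its probe sets 1369609_at and 1376711_at) in undosed cerebellum and by 1.84 ± 0.27 and 1.88 ± 0.30 in undosed hippocampus.

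Enzymes made up the rest. Cnp, a phosphodiesterase of the uncompacted cytoplasm that is already made by immature oligodendrocytes, had the smallest rises in cerebellum, with 1.21 ± 0.31 (2.31-fold, adjusted p = 0.00495) for 1370693_a_at and 0.83 ± 0.25 (1.77-fold, adjusted p = 0.0168) for 1387897_at in undosed pups. In undosed hippocampus these rose by 1.53 ± 0.28 and 1.36 ± 0.23. Ugt8, the enzyme that makes galactosylceramide, a main lipid of myelin, rose by 2.23 ± 0.33 in undosed cerebellum and by 1.83 ± 0.30 in undosed hippocampus at 1368858_at.

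**Figure D2:**
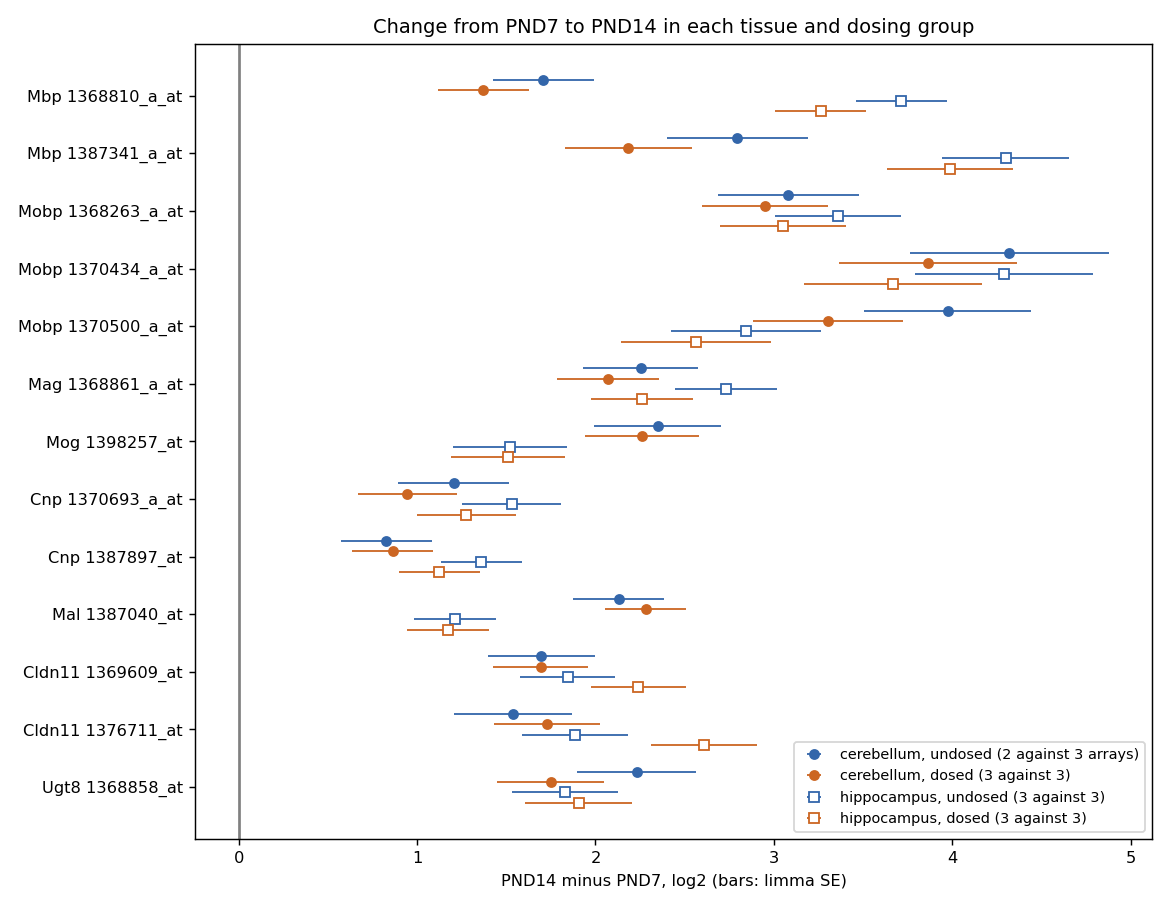
Change from PND7 to PND14 (x axis, log2) for the 13 tested myelin probe sets (y axis), with limma's SE as bars; filled circles are cerebellum, open squares hippocampus, blue undosed and orange dosed. All 52 changes are above 0, from 0.83 for Cnp 1387897_at to 4.32 for Mobp 1370434_a_at, and the squares of both Mbp probe sets lie to the right of their circles.

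Whether the rise differed between tissues was tested as the age change in cerebellum minus the age change in hippocampus. In undosed pups 1 of 13 was called, where 18.3% of all probe sets tested were called in either direction: Mbp 1368810_a_at, at -2.01 ± 0.38 (adjusted p = 0.00122). Mbp 1387341_a_at had -1.50 ± 0.53 (adjusted p = 0.0534) and Mal had 0.92 ± 0.34 (adjusted p = 0.0674), both short of the threshold. In dosed pups 3 of 13 were called against 12.9%: Mbp 1368810_a_at at -1.89 ± 0.36 (adjusted p = 0.00132), Mbp 1387341_a_at at -1.80 ± 0.50 (adjusted p = 0.0207) and Mal at 1.11 ± 0.32 (adjusted p = 0.0272). By these calls Mbp 1368810_a_at rose more in hippocampus in both dosing conditions. Mal had the larger rise in cerebellum in dosed pups, a description, since it passed the filter only through PND14 arrays. The share called in undosed pups was below that of all probe sets tested, and the intervals of the other 10 probe sets still allow differences, of up to 2.44 for Mobp 1370500_a_at in undosed pups.

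These differences changed with the arrays. Without the 4 arrays of high Xist 0 of 13 were called in undosed pups (limma, 1 of 13 at an unadjusted p under 0.05), with Mbp 1368810_a_at at -1.88 ± 0.54 (adjusted p = 0.0653), and 1 of 13 in dosed pups, where 4.07% and 9.51% of all probe sets were called in those fits. Without the undosed cerebellum PND7 array of dam 1, or that of dam 7, 2 of 13 were called in undosed pups. Without the dosed hippocampus array of dam 15 at PND14, which is described below, 8 of 13 were called in dosed pups against 14.5% of all. Of these 7 had the larger rise in hippocampus (both probe sets of Mbp, Cnp and Cldn11, and Ugt8) and Mal had the larger rise in cerebellum. That array was singled out by its low myelin values, so these counts are a description. In the highest array Mbp 1368810_a_at lay at the 99.97 percentile of all probe sets of that array and Mbp 1387341_a_at at 99.75. The part of the array's upper range in the smaller cerebellar rise of Mbp was not tested.

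At each age the myelin genes were higher in cerebellum than in hippocampus. In undosed pups at PND7, 10 of 13 were called higher in cerebellum, where 26.4% of all probe sets tested were, and at PND14 11 of 13 against 27.5%. Among dosed pups these counts were 11 of 13 at PND7 against 29.1% and 13 of 13 at PND14 against 27.4%. Mbp differed most at PND7, by 2.68 ± 0.25 (6.40-fold) at 1368810_a_at and 2.99 ± 0.35 at 1387341_a_at in undosed pups, while Mal (0.13 ± 0.23, with overlapping arrays), Mog (0.52 ± 0.32) and Mobp 1370500_a_at (0.92 ± 0.42) were not called there. In dosed pups at PND7 Mal had 0.01 ± 0.23 (95% interval -0.47 to 0.48). Of the 6 PND7 arrays of Mal in each dosing condition 1 lay above the 40th percentile, so these small differences are between levels near the low end of the array. At PND14 the difference was 1.05 ± 0.26 for Mal and 2.05 ± 0.47 for Mobp 1370500_a_at in undosed pups, while Mbp 1368810_a_at (0.67 ± 0.29, adjusted p = 0.0521) and Mag (0.76 ± 0.32, adjusted p = 0.0518) were short of the threshold. Without the 4 arrays of high Xist the undosed counts were 8 at PND7, where 18.9% of all probe sets were called higher, and 5 at PND14, where 18.1% were, and without the undosed cerebellum PND14 array of dam 7, which leaves 1 array, 6 were called at PND14. Without the dosed hippocampus PND14 array of dam 15, 10 of 13 were called higher in dosed pups at PND14, where 26.4% of all probe sets were.

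**Figure D3:**
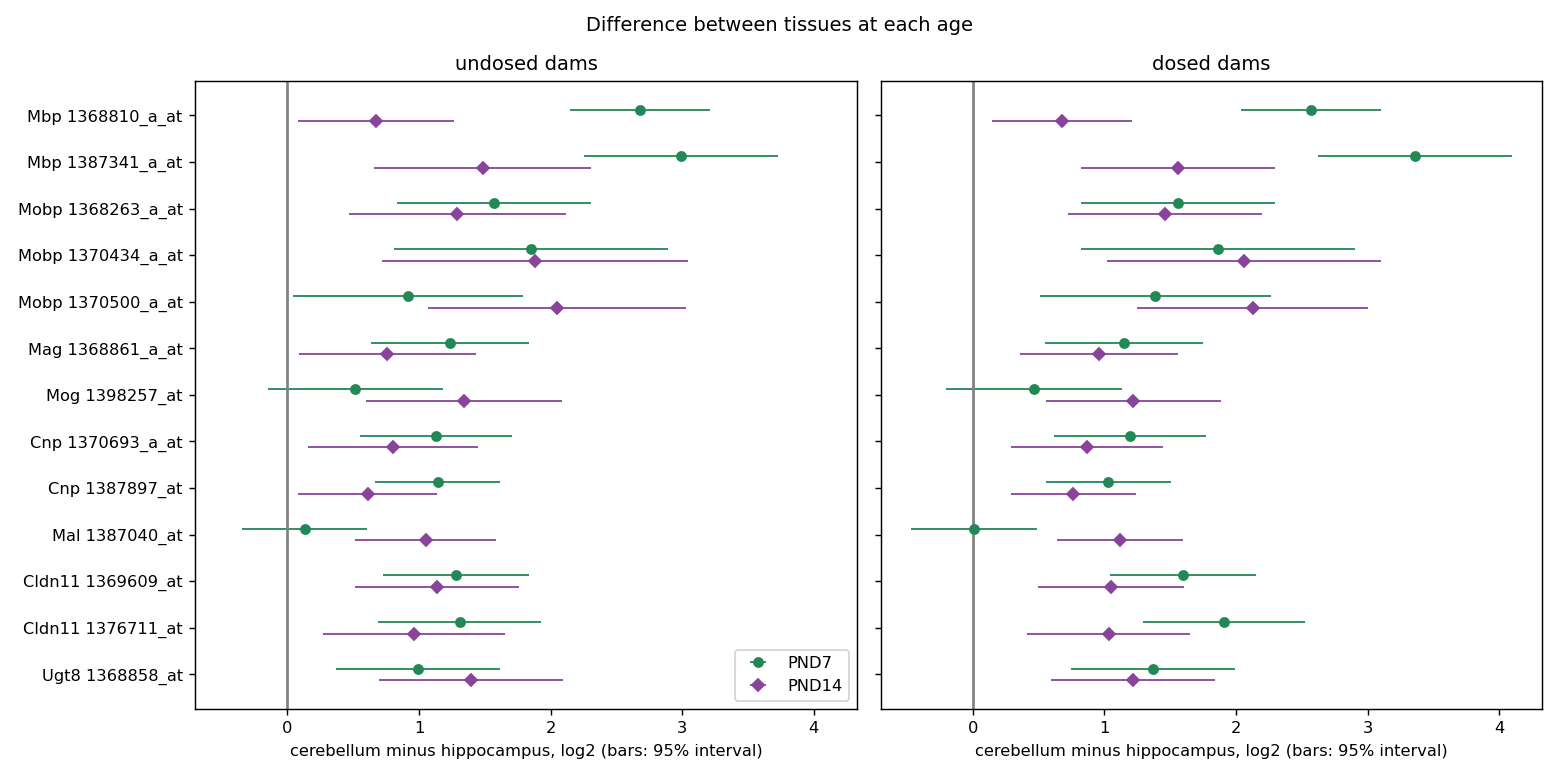
Cerebellum minus hippocampus (x axis, log2) for the 13 tested myelin probe sets (y axis) in pups of undosed (left) and dosed (right) dams, with 95% intervals as bars; green circles are PND7 and purple diamonds PND14. The difference shrinks with age for both Mbp probe sets and grows for Mal, whose PND7 intervals span 0 in both panels.

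Hippocampus at PND14 was set against cerebellum at PND7 to place the tissues on the same course. The group means of 13 of 13 probe sets ran in the same order in undosed and in dosed pups: hippocampus PND7, cerebellum PND7, hippocampus PND14, cerebellum PND14. The share of all probe sets with that order is not given here, and not every step was called. Between the tissues at PND7, 3 of 13 were not called in undosed pups and 2 of 13 in dosed pups. The PND7 means of Mal in dosed pups were 6.685 (hippocampus) and 6.692 (cerebellum). At PND14, 2 of 13 were not called between the tissues in undosed pups. In undosed pups 9 of 13 were called higher in the older hippocampus, where 30.1% of all probe sets tested were. Mobp 1370434_a_at was higher there by 2.44 ± 0.50, Mag by 1.49 ± 0.29 and Mbp 1368810_a_at by 1.04 ± 0.25. Hippocampus PND14 against cerebellum PND7 did not pass the test for Cnp (0.40 ± 0.28 and 0.22 ± 0.23) and Cldn11 (0.56 ± 0.27 and 0.57 ± 0.30). Dosed pups had 9 of 13 called against 30.1%. Without the hippocampus PND14 array of dam 15, which lowers that group's mean, 13 of 13 were called higher, where 29.0% of all probe sets were. With 1 other array left out instead, 4 of 13 were called without the dosed hippocampus PND14 array of dam 18, and 5 of 13 without that of dam 12 or without the dosed cerebellum PND7 array of dam 18.

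No myelin probe set differed by a call between dosed and undosed pups. Dosing gave 0 of 13 in cerebellum at PND7 (0.00% of all probe sets tested were called), 0 of 13 in cerebellum at PND14 (0.00%), 0 of 13 in hippocampus at PND7 (0.600%) and 0 of 13 in hippocampus at PND14 (0.00%). At an unadjusted p under 0.05 in limma these counts were 0, 0, 1 and 0. Of all 10330 probe sets tested 543, 503, 1761 and 392 were under it, in that order. The 95% intervals of the differences reached from -1.39 to 1.41 at PND7 and from -1.31 to 1.07 at PND14, which still includes changes of more than 2-fold for the most variable probe sets. Tested directly with limma, the rise with age differed between dosed and undosed pups in 0 of 13 in cerebellum (0.00%) and 0 of 13 in hippocampus (0.136%). At an unadjusted p under 0.05 these counts were 0 and 0, where 695 and 1468 of all 10330 probe sets were.

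Cldn11 was the member closest to a dosing difference, in hippocampus at PND7. Cldn11 1376711_at read 8.32, 8.04 and 7.84 in undosed pups (dams 1, 7 and 13) and 7.23, 7.36 and 7.29 in dosed pups (dams 12, 15 and 18). Its other probe set, 1369609_at, read 6.51, 6.55 and 6.21 against 5.91, 6.19 and 5.90. All dosed pups lay below all undosed pups on both, as they did for 10.3% of the probe sets tested. The differences were -0.78 ± 0.30 (adjusted p = 0.187) and -0.42 ± 0.27 (adjusted p = 0.446), neither called. Meningeal cells also make Cldn11. In the same arrays 11 of 11 tested genes of meninges and fibroblasts were lower in dosed pups, where the median difference of all probe sets was 0.01. The list mean was 7.56 to 8.04 against 8.29 to 8.62. Of these genes Lum (-1.09 ± 0.17, adjusted p = 0.0141) and Dcn (-0.56 ± 0.12, adjusted p = 0.0350) fell, where 0.368% of all probe sets did. Both are matrix proteoglycans and are named here after their values were seen. Without the arrays of high Xist 1 gene of the list fell. The part of the list's genes in the Cldn11 values was not tested. No other member was lower without overlap in those groups, and Mobp 1370434_a_at was higher without overlap (0.35 ± 0.50), as were 12.1% of probe sets. In cerebellum at PND14 Ugt8 1368858_at was lower in dosed pups without overlap (-0.18 ± 0.33), as were 7.56% of probe sets.

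**Figure D4:**
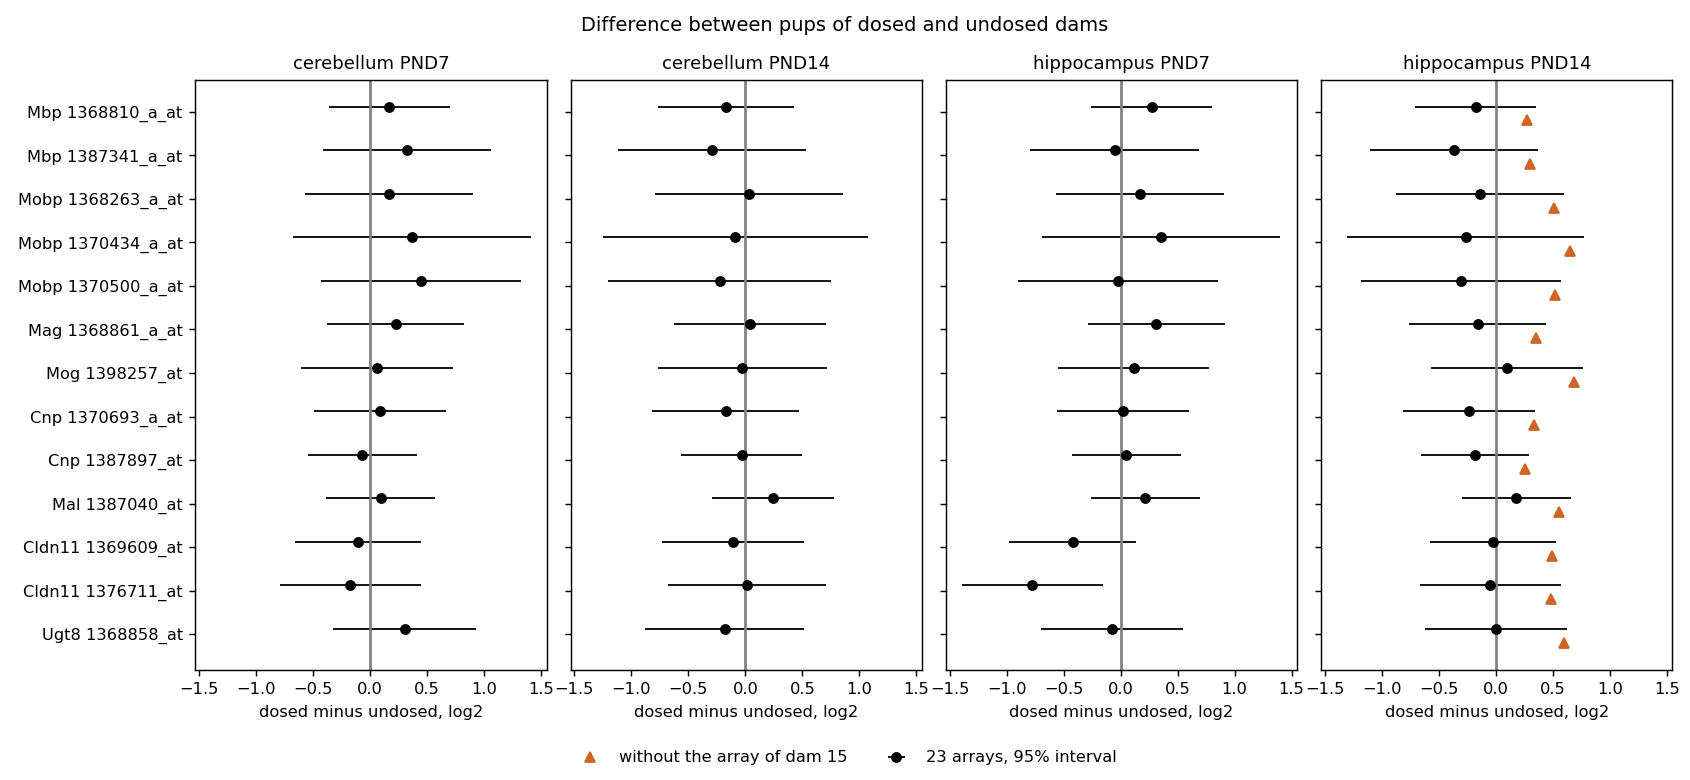
Dosed minus undosed (x axis, log2) for the 13 tested myelin probe sets (y axis) in each tissue and age, with 95% intervals as bars; orange triangles are the hippocampus PND14 differences without the array of dam 15. Every interval but that of Cldn11 1376711_at in hippocampus at PND7 spans 0, and the 13 triangles lie between 0.26 and 0.68.

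In the hippocampus at PND14 a single dosed pup, that of dam 15, had low values of all 13 myelin probe sets. Mobp 1370434_a_at read 6.66 in it against 9.11 and 9.73 in the pups of dams 12 and 18 and 8.38 to 8.97 in undosed pups. Mbp 1387341_a_at read 9.15 against 10.89 and 11.39, and Mog read 5.47 against 7.07 and 7.37. For 13 of 13 probe sets it was the lowest of the 6 hippocampus PND14 arrays, where it was the lowest for 28.4% of all probe sets tested. The differences from the mean of its 2 group mates ran from -2.76 (Mobp 1370434_a_at) to -1.12 (Mal), with a median of -1.69. Only 39 of the 10330 probe sets (0.378%) were more than 1 below the mates there, these 13 among them, and Mobp 1370434_a_at had the lowest difference of all. Even so, 13 of 13 were above every dosed hippocampus array at PND7.

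Other oligodendrocyte genes were lower in that array too, by less. The mean of 19 other myelin and mature oligodendrocyte genes was 8.16 against 8.60 and 8.72 in its mates, that of 16 genes of precursors and lineage factors 8.37 against 8.64 and 8.63, and that of 18 cholesterol synthesis genes 8.39 against 8.81 and 8.82. Some lists ran the other way, with 11 microglia and macrophage genes at 7.95 against 7.61 and 7.58 and 3 red blood cell genes at 9.84 against 9.15 and 9.12. Hippocampal neuron genes (9.66 against 9.83 and 9.79) and astrocyte genes (9.82 against 9.94 and 9.89) were closer to the mates. The cerebellum array of dam 15 at PND14 had cholesterol synthesis genes at 8.24 against 8.84 and 8.75, microglia and macrophage genes at 7.67 against 7.18 and 7.21 and red blood cell genes at 10.87 against 9.28 and 9.34, but the mean of its 13 myelin probe sets was 10.23 against 10.34 and 10.54. The part of these other values in the low myelin values was not tested.

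**Figure D5:**
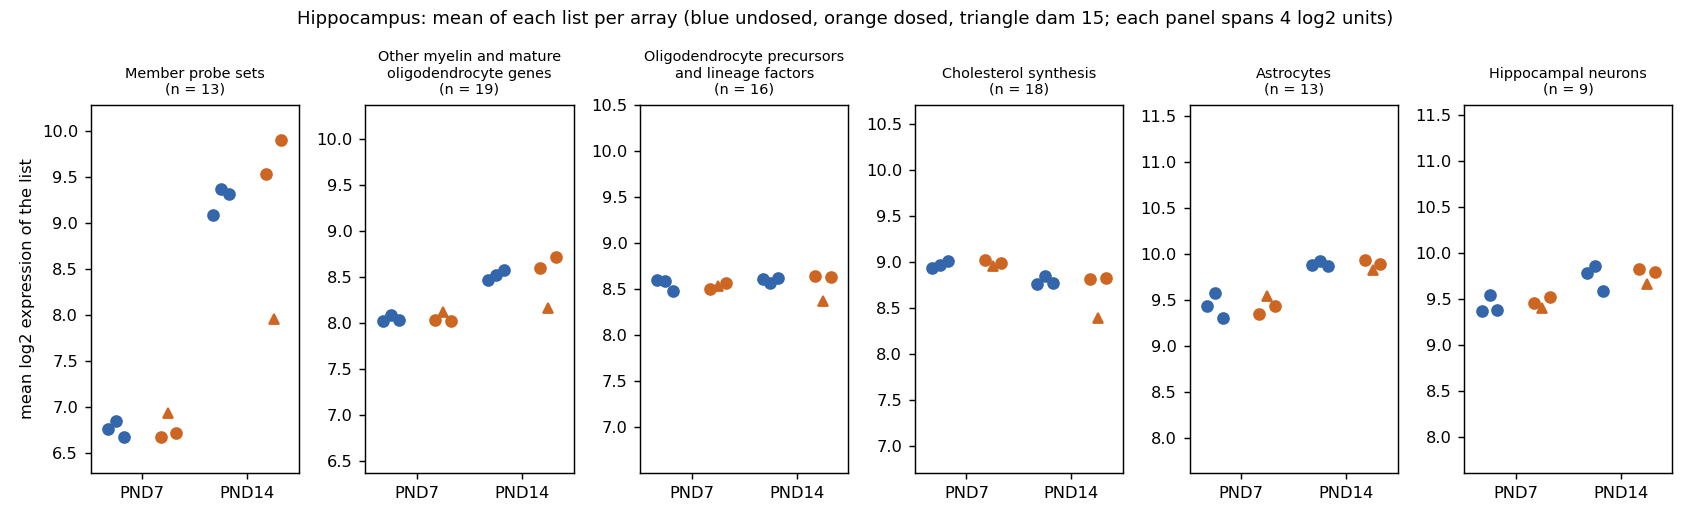
Mean log2 expression (y axis, 4 log2 units in each panel) of 6 gene lists in each hippocampus array at PND7 and PND14; blue points are undosed pups, orange points dosed pups and triangles those of dam 15. The PND14 triangle lies at 7.96 among the myelin probe sets, where the other 5 PND14 arrays lie between 9.09 and 9.90.

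Without that array all 13 myelin probe sets were higher in dosed than in undosed hippocampus at PND14, by 0.26 (Cnp 1387897_at) to 0.68 (Mog), whereas with it 11 of 13 were lower. None of the 13 was called (limma, adjusted p = 1 for each), while 8 of 13 and 225 of all 10311 probe sets tested in that fit had an unadjusted p under 0.05. The difference in the age rise between dosed and undosed hippocampus likewise gave 0 of 13 calls. At an unadjusted p under 0.05 there were 3 of 13, and 1181 of all 10311 probe sets. The array was singled out by its low values of these same 13, which vary together, so leaving it out raised the dosed mean of each. The counts without it are therefore a description. Leaving it out also leaves 2 dosed pups, so the direction of the dosing difference in this group rests on the pup of dam 15.

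A list of other genes of the same cells was read beside the 8, and part of it rose with age. Of 19 tested genes of myelin and mature oligodendrocytes 8 rose in undosed cerebellum, 11 in dosed cerebellum, 8 in undosed hippocampus and 11 in dosed hippocampus. Over all probe sets 15.1%, 16.0%, 14.9% and 14.2% rose in that order. Of the 19 genes 0 fell in any of the 4. Their medians were 0.41, 0.51, 0.33 and 0.54. Pllp, a proteolipid related to Mal, rose by 0.98 ± 0.18 in undosed cerebellum and 1.10 ± 0.16 in undosed hippocampus, Tspan2, a tetraspanin of oligodendrocytes, by 0.94 ± 0.13 and 0.59 ± 0.12, and Tppp, a tubulin-binding protein of myelinating cells, by 0.92 ± 0.18 and 1.46 ± 0.16. Bcas1, a marker of oligodendrocytes that are starting to myelinate, rose by 0.97 ± 0.18 in undosed hippocampus and had 0.06 ± 0.20 in cerebellum. Pmp22, better known from peripheral myelin, had -0.11 ± 0.12 and 0.09 ± 0.11. Without the arrays of high Xist 4 of the 19 rose in undosed cerebellum.

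Of 16 precursor and lineage genes tested, 2 rose and 5 fell in undosed cerebellum, where 15.1% of all probe sets rose and 17.3% fell. In undosed hippocampus 2 rose and 1 fell, where 14.9% rose and 16.9% fell, so the number that rose was near the share over all probe sets in both tissues. Sox10, a transcription factor of the whole lineage, rose by 0.71 ± 0.15 in undosed hippocampus and had 0.25 ± 0.17 in undosed cerebellum, and Myrf rose by 0.88 ± 0.16 in undosed hippocampus and had 0.39 ± 0.17 in undosed cerebellum. Pdgfra, the growth factor receptor of precursors, fell by 0.57 ± 0.17 in undosed cerebellum and had 0.01 ± 0.15 in hippocampus. Vcan, a proteoglycan of precursors and of the young brain matrix, fell by 0.98 ± 0.19 and 1.06 ± 0.17, and Olig1 had 0.00 ± 0.20 and 0.18 ± 0.18. Without the arrays of high Xist 1 rose and 1 fell in undosed cerebellum and 2 rose and 2 fell in undosed hippocampus.

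Of 18 cholesterol synthesis genes 3 rose and 1 fell with age in undosed cerebellum, a share of rises near that of all probe sets (15.1%), while 0 rose and 6 fell in undosed hippocampus, where 16.9% of all fell. Sc5d, a late enzyme of that pathway, rose by 0.81 ± 0.16 in undosed cerebellum, and Hsd17b7, another of its enzymes, fell by 0.82 ± 0.11 in undosed hippocampus. Idi1 rose by 0.75 ± 0.22 in the former and fell by 0.69 ± 0.20 in the latter. At PND7, when the myelin proteins were higher in undosed cerebellum, 11 of these 18 were lower there and 1 was higher, where 24.3% and 26.4% of all probe sets were, and at PND14 1 was lower and 2 were higher. Dosed pups had 9 lower and 1 higher at PND7 and 5 lower and 1 higher at PND14, where 30.0% and 25.9% of all were lower. Without the arrays of high Xist 1 fell with age in undosed hippocampus, 7 were lower and 1 was higher in undosed cerebellum at PND7, and 0 were called at PND14. Of 15 genes of sphingolipid and fatty acid synthesis 1 rose and 2 fell in undosed cerebellum, and 4 rose and 2 fell in undosed hippocampus, against those same shares. In undosed hippocampus Gltp, a glycolipid transfer protein, rose by 0.72 ± 0.15.

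Genes known to respond to thyroid hormone were read beside them. Of 10 tested 6 rose and 0 fell with age in undosed cerebellum, and 4 rose and 2 fell in undosed hippocampus, against the shares over all probe sets given above. Klf9, which encodes a zinc finger factor under thyroid hormone control, rose by 1.94 ± 0.14 and 1.23 ± 0.12, and Hr, a corepressor also under its control, rose by 1.86 ± 0.25 in undosed cerebellum and had 0.54 ± 0.22 (adjusted p = 0.0677) in undosed hippocampus. With dosing 0 of the 10 were called in either tissue at either age. Of all probe sets 0.600% were called in hippocampus at PND7, and 0.00% in hippocampus at PND14 and in cerebellum at both ages. In hippocampus at PND14 Klf9 had 0.07 ± 0.12 and Hr -0.20 ± 0.22. Of 3 tested genes of Schwann cells, the myelinating cells of peripheral nerve, 1 rose and 1 fell in undosed cerebellum and 0 rose and 1 fell in undosed hippocampus.

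The member probe sets varied together across arrays. Each was correlated with the mean of the other members over 23 arrays, at r = 0.905 for Mal up to 0.992 for Mobp 1368263_a_at, a description in which all points share tissue and age. The genes outside the 8 whose profile was most like their mean were Pgbd5 (r = 0.974), Vamp1 (0.967), a synaptic vesicle protein, Atp2b2 (0.954), a plasma membrane calcium pump, Sirt2 (0.954), a deacetylase abundant in myelin, Mbnl2 (0.952), a splicing regulator, Fndc5 (0.932), Pnlip (0.926) and Ubl3 (0.926). Of these Vamp1 rose with age by 1.52 ± 0.12 in undosed cerebellum and 1.49 ± 0.10 in undosed hippocampus, Mbnl2 by 1.72 ± 0.11 and 1.18 ± 0.09, and Sirt2 by 0.65 ± 0.19 and 0.79 ± 0.17.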

How the data were processed

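The deposited values are 1 number per probe set and array, read as log2 expression from their range; how the authors corrected background, normalized and with which software is not given in the sources used here. Of 15923 probe sets 57 controls were left out, 12783 had 1 gene symbol in the platform's annotation, 312 several and 2771 none, and the 2 latter kinds were not named. Quantile normalization of the 23 arrays kept (limma 3.58.1, R 4.3.3) shifted myelin values by up to 0.150 from those deposited. Limma (lmFit, contrasts, eBayes) fitted 1 mean for each of 8 groups, with 15 residual degrees of freedom, and 18 comparisons were read from that fit, two-sided. A gene of a list was read from its probe set with the highest mean. The fit was tested on simulated data. The number of arrays limits the precision. The labels tie the arrays of a dam together, and deviations from the group mean correlated at a median r of 0.278 between tissues of 1 dam's pup at 1 age (11 pairs) and of 0.0104 between the pups of 1 dam at the 2 ages (11 pairs). The members, lists and motifs were chosen with earlier results of these data known. Genes named beyond the members were up to 4 per list with the largest called age change in undosed pups, a few fixed marker genes and the 8 most like the members' mean. Alternatives were the deposited values, no filter, a filter at the 60th percentile, a trend in the prior variance, all 24 arrays, no arrays of high Xist, 1 tissue only, the dam as a replicate block and each array left out; leaving arrays out of the list counts was added after seeing the data.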

Additional observations from a re-analysis of the deposited data

Results flagged for a closer look

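The change with age differed between cerebellum and hippocampus, by a test of the difference itself, for Mbp 1368810_a_at in undosed pups (-2.01) and in dosed pups (-1.89), for Mbp 1387341_a_at in dosed pups (-1.80) and for Mal 1387040_at in dosed pups (1.11), each as the cerebellar minus the hippocampal change in log2. Between 2 and 3 pups per group stand behind each value. Mal passed the filter only through PND14 arrays, so its value is a description.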

How the results depend on the processing

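Counts below are of 13 myelin probe sets called. The share of all probe sets called also changed with the arrays kept. For the tissue difference in the age change of dosed pups it was 12.9% in the main fit. It was 9.51% without the arrays of high Xist and 14.5% without the hippocampus PND14 array of dam 15. Shares for all 24 arrays, and for single arrays left out other than that of dam 15, are not given. For the tissue difference in the age change of undosed pups (1 called), the deposited values and the variance trend each gave 2, leaving out the arrays of high Xist gave 0, and leaving out each array in turn gave 1 to 2. In dosed pups (3 called) all 24 arrays and leaving out the arrays of high Xist each gave 1, and single arrays left out gave 2 to 8. Tissue at PND14 in undosed pups (11 called) gave 7 with all 24 arrays, 5 without the arrays of high Xist and 6 to 10 with single arrays left out, and hippocampus PND14 against cerebellum PND7 in dosed pups (9 called) gave 5 with all 24 arrays and 4 to 13 with single arrays left out. With all 24 arrays Cnp 1370693_a_at turned to -0.88 with age in undosed cerebellum and to -1.28 for tissue in undosed pups at PND14; the array added reads 5.39 for it. With the dam as a replicate block 1 member call was lost (Cldn11 1369609_at, hippocampus PND14 against cerebellum PND7 in dosed pups, 0.64, adjusted p = 0.0533 against 0.0422), no other, and the count for that comparison was 8. The block takes all arrays of a dam together, with a consensus correlation of 0.0426. The closer tie between the tissues of 1 dam at 1 age (median r 0.278) was not modelled on its own. Counts of the age rise stayed at 11 to 13 and those of dosing at 0 in every alternative run. With 2 or 3 pups per group, low levels such as Mog, Mal and Mobp 1370434_a_at at PND7 and the flat Ugt8 probe set are the least informative.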
